A study of Mus musculus with 28 samples.

Results

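Subcutaneous white fat of mice with an inducible knockout of Fgf13 (isWAT) was compared with the same depot of control mice by bulk RNA-seq. The comparison uses 5 of the 28 libraries of the series, 3 labelled control, with a wild-type genotype, and 2 labelled Fgf13 knockout. Every mouse, controls included, was obese and had eaten a high fat diet for 20 weeks. The series text places the inducible deletion in adipose tissue. The Cre driver, the inducing agent, the time since induction, the strain, age and sex are not in the sources used here. The labels also do not tie the libraries to separate animals, so each p-value measures only the spread between these libraries. Values are read levels in CPM (reads of a gene scaled to a fixed library total), and a change is knockout minus control on the log2(CPM + 1) scale with its standard error (SE), which understates the change of low genes. Of 55891 gene identifiers in the table, 14258 reached 1 CPM in at least 2 libraries and were tested, and 27471 of the 41633 others were at 0 in all 5 libraries. At the edge of that filter, Pih1d2 was kept with 1.00 and 1.01 CPM in its highest libraries, and Tuba8 was not kept with 1.14 and 0.990 CPM.

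FGF13 belongs to the intracellular fibroblast growth factors, which are not secreted and do not act through FGF receptors. It is best known for binding the cytoplasmic end of voltage-gated sodium channels and for binding microtubules, and it has been studied mainly in neurons and heart muscle. White fat holds lipid-filled adipocytes together with endothelial cells, pericytes, fibroblast-like progenitors and immune cells, so a bulk library sums the RNA of all of them. For every result here, fewer cells of a type and less RNA per cell cannot be told apart.

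The defining genes of white adipocytes were among the most abundant. Adipoq, which encodes adiponectin, was at 2301, 2337 and 2302 CPM in controls and 2752 and 2785 CPM in knockouts, and Lep, the leptin gene, at 4842, 3952 and 4391 against 3559 and 3725 CPM. Ucp1, the uncoupling protein of brown fat, was at 0.793 to 5.94 CPM. Libraries held 37700750 to 48812592 reads, so that 1 read was worth 0.0205 to 0.0265 CPM. The 5 libraries did not divide first by genotype: the first principal component held 48.1% of the variance, with control 2 and knockout 1 at one end, and 22 of 24 hepatocyte genes were among the 100 genes with the largest weight on it. The hepatocyte list was added after these data were seen, so that count is a description and not independent support. The summed level of those hepatocyte genes was 1012 CPM in control 2 and 729 CPM in knockout 1, against 135, 202 and 200 CPM in control 1, control 3 and knockout 2. Alb, the liver's albumin gene, was at 313 and 187 CPM in the former pair and 34.0 to 58.0 CPM in the others.

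Changes also varied with transcript length. Across the 14091 genes with a length (98.8%), the rank correlation of the log2 change with the longest annotated transcript was -0.36, a description over genes that share the same libraries. Among the shortest quintile of genes (up to 1876 bases), 21.1% were higher in both knockout libraries than in every control and 6.24% lower. Among the longest quintile (5208 bases and over) these shares were 3.90% and 30.5%. The median of the longest quintile, relative to the control mean, was -0.20 in knockout 1 and -0.06 in both knockout 2 and control 2, and that of the shortest was 0.14, 0.02 and 0.08 in the same order. The part of hepatocyte RNA and of transcript length in the results was not tested.

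**Figure D1:**
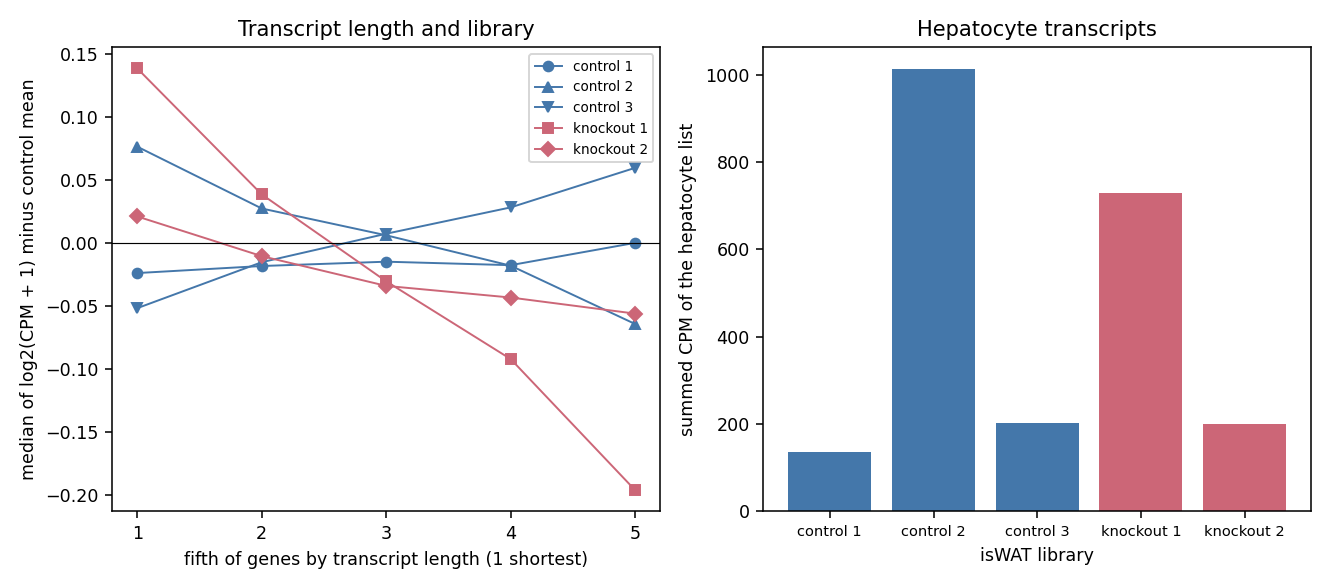
Left, median over the genes of each transcript length quintile (1 shortest, 5 longest) of log2(CPM + 1) minus the mean of the 3 controls, 1 line per library; knockout 1 runs from 0.14 to -0.20. Right, summed CPM of 24 hepatocyte genes in each library, with control 2 at 1012 and knockout 1 at 729 CPM.

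Fgf13 itself (ENSMUSG00000031137) checks the labels. It was at 58.9, 53.0 and 69.2 CPM in controls and 31.3 and 35.3 CPM in knockouts. Both knockout libraries were below every control, and the group mean was 44.8% lower, with 33.3 ± 2.83 CPM (SD, n = 2) against 60.3 ± 8.18 CPM (SD, n = 3). The log2 change was -0.83 (SE 0.12), with an adjusted p of 0.179 (limma, Benjamini-Hochberg over all genes tested), so the targeted gene missed the threshold of 0.05. An exact two-sided permutation test over the 10 ways to split 5 libraries gave p = 0.1, the smallest it can give. Reads of Fgf13 remained in every knockout library of whole fat.

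Among 19 FGF ligands and receptors, 13 were kept. The receptors are tyrosine kinases that bind secreted FGFs. Fgfr3 was at 12.4, 10.6 and 12.6 CPM in controls and 5.30 and 7.81 CPM in knockouts (log2 change -0.79, SE 0.16, adjusted p 0.25 in limma). Fgfr1, the main receptor of adipocyte progenitors for FGF1 and FGF2, was at 263, 255 and 258 against 202 and 221 CPM (log2 change -0.29, SE 0.08). Neither passed the test, and for both genes the groups did not overlap. Of Fgf13's closest relatives, Fgf11 was at 8.0 to 9.40 CPM with overlapping groups, while Fgf12 was at most 0.937 CPM and Fgf14 at most 0.120 CPM. Fgf1, a growth factor made by adipocytes on high fat feeding, was at 82.2 to 88.4 CPM in controls and 83.2 and 91.1 CPM in knockouts, with overlapping groups. The Fgf11, Fgf12, Fgf14 and Fgf1 values were chosen after they were seen.

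Esr1, which encodes estrogen receptor alpha, was the gene that passed the test. It is a nuclear receptor that limits fat mass in mice of both sexes. Esr1 (ENSMUSG00000019768) was at 11.2, 11.5 and 9.73 CPM in controls and 28.9 and 30.5 CPM in knockouts. The lowest knockout library was over the highest control by a wide margin, and the spread within each group was small, at 10.8 ± 0.963 CPM (SD, n = 3) and 29.7 ± 1.16 CPM (SD, n = 2). Esr1 rose 2.74-fold in mean CPM, with a log2 change of 1.38 (SE 0.11) and an adjusted p of 0.0390 in limma. It was also the single call of edgeR's quasi-likelihood test (adjusted p 0.0260), so 0.00701% of the genes tested were called by either tool. DESeq2 called 273 genes (1.91%), 98 higher (0.687%) and 175 lower (1.23%). The call was lost with eBayes without its trend and robust options (smallest adjusted p 0.174), and without knockout 2, without control 1 and without control 3, when no gene passed and the smallest adjusted p of any gene was 0.108, 0.568 and 0.141. An exact permutation test gave p = 0.1, the smallest possible. The table counts reads per gene and does not show which part of Esr1 they come from. Whether an RNA that carries estrogen receptor sequence, such as an inducible Cre fused to it, adds to the count was not tested, since the deleting transgene is not named in the sources used here.

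The median change of genes under estrogen control was near that of all genes. Of 15 listed estrogen receptor targets 9 were kept, with a median log2 change of -0.06 against -0.03 over all genes. The change was negative for 7 of the 9 and positive for 2. Both knockout libraries were higher than every control for 2 of the 9 and lower for 1. Pgr, the progesterone receptor gene, was at 0 in all 5 libraries and Greb1 was at most 0.0514 CPM. Among 13 steroid and related nuclear receptors kept, 6 were lower in both knockout libraries than in every control. The median transcript length of these 13 was 4905 bases, a quintile in which 26.0% of genes were lower. Rara, a retinoic acid receptor, was at 52.6, 42.7 and 47.2 against 29.2 and 32.0 CPM (log2 change -0.61, SE 0.11), and Thra, a thyroid hormone receptor, at 104, 107 and 104 against 83.7 and 84.3 CPM (log2 change -0.32, SE 0.07). Esrrg, an estrogen-related receptor of oxidative metabolism, was at 8.23, 5.68 and 8.95 against 4.32 and 4.52 CPM, and Rxra, the shared partner of many of these receptors, at 318, 288 and 290 against 248 and 257 CPM. None of these passed the test. In this comparison 19.4% of all genes were lower and 12.2% higher without overlap of the groups, which is the background for every such count in isWAT with all 5 libraries.

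Rfc4, a subunit of the DNA clamp loader, lies beside Adipoq in the genome. It was at 4.34, 4.09 and 5.20 CPM in controls and 9.28 and 8.60 CPM in knockouts (log2 change 0.85, SE 0.13, adjusted p 0.179 in limma), without overlap. Of 8 genes flanking Adipoq that were kept, Rfc4 was the single one with both knockout libraries above every control. St6gal1, a sialyltransferase, was at 29.6, 33.5 and 32.2 against 25.6 and 28.5 CPM, and Eif4a2, a translation initiation helicase, overlapped, at 104 to 135 against 130 and 141 CPM. Whether a transgene built from this region adds to the Rfc4 count was not tested.

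**Figure D2:**
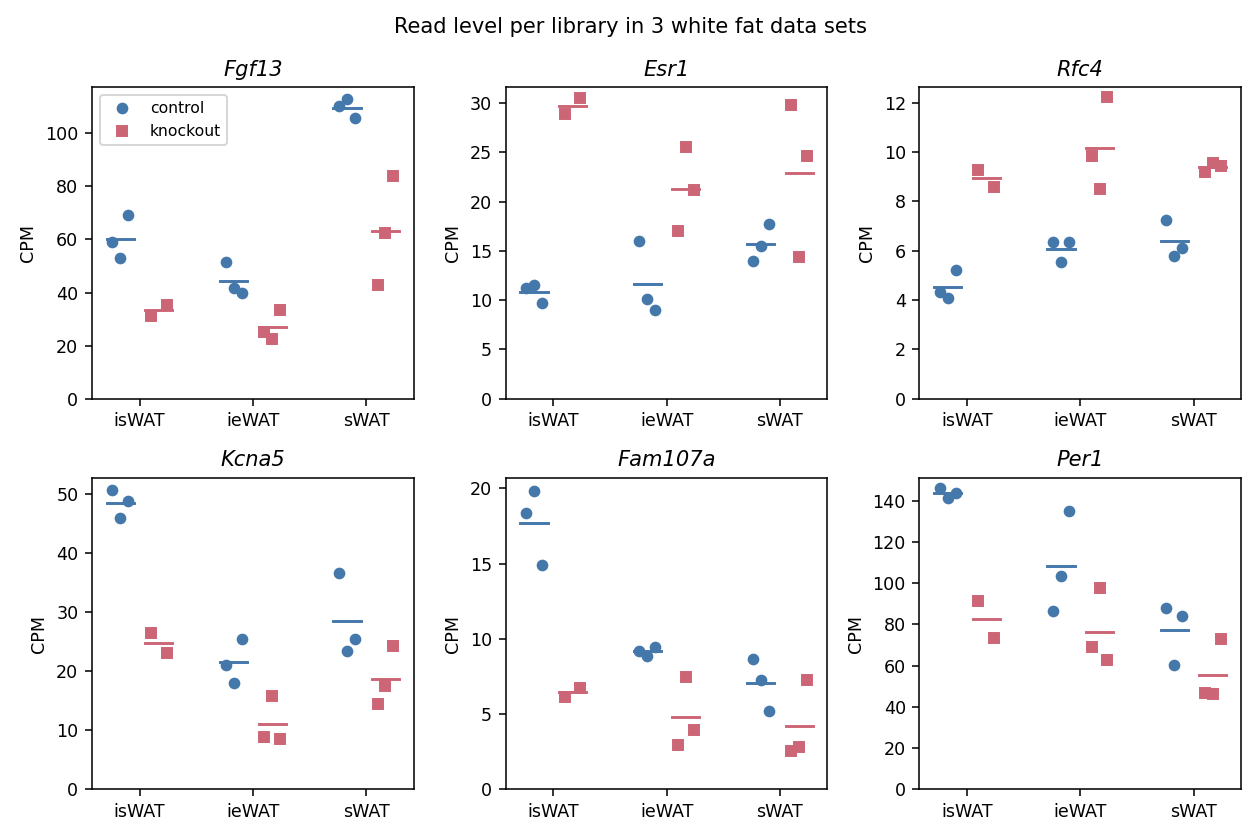
CPM (linear axis from 0) of 6 genes in each library of isWAT, of epididymal fat with the inducible knockout (ieWAT) and of subcutaneous fat with a constitutive knockout (sWAT); circles are control, squares knockout libraries, and short lines are group means. In isWAT the groups do not overlap for any of the 6, and Rfc4 and Fgf13 do not overlap in the other data sets either.

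The remaining genes were ranked by their unadjusted p, and the 15 with higher and 15 with lower knockout values are described, Esr1 and Fgf13 among them. At an unadjusted p under 0.05, 567 genes were higher (3.98%) and 1302 lower (9.13%), 13.1% in all, a split that became 797 and 983 after scaling by trimmed mean of M-values (TMM). The named genes below had adjusted p-values from 0.107 to 0.270, so each is given by its values. On the lower side Kcna5, a voltage-gated potassium channel of smooth muscle and macrophages, had the smallest p. Kcna5 was at 50.6, 45.9 and 48.8 CPM in controls and 26.5 and 23.1 CPM in knockouts (log2 change -0.94, SE 0.09, adjusted p 0.107 in limma). Fam107a, a stress-inducible actin-binding protein, was at 18.3, 19.8 and 14.9 against 6.13 and 6.75 CPM (log2 change -1.32, SE 0.14, adjusted p 0.107). For both genes every control exceeded the highest knockout library by more than the range of either group. With Fgf13 they passed at 0.05 when control 2 and knockout 1, the libraries rich in hepatocyte transcripts, were left out, a fit that called 54 genes, 14 higher and 40 lower, with knockout 2 as the lone knockout library.

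Ntrk3, the receptor of neurotrophin 3, was at 12.8, 14.6 and 8.87 CPM in controls and 3.79 and 3.05 CPM in knockouts (log2 change -1.55, SE 0.20). Slc1a1, a glutamate and cysteine-supplying transporter, was at 21.9, 15.6 and 12.4 against 5.04 and 5.04 CPM (log2 change -1.51, SE 0.21). Slc10a6, a transporter of sulfated steroids, was at 16.0, 10.8 and 12.5 against 5.30 and 3.75 CPM (log2 change -1.35, SE 0.19). These 3 genes had the most negative changes of the named group, and their control libraries also spread widely. Ackr3, a scavenging receptor of the chemokine CXCL12, was at 64.0, 50.0 and 51.9 against 27.3 and 31.7 CPM, and Sdc4, a heparan sulfate proteoglycan at focal adhesions, at 73.1, 63.1 and 70.6 against 40.1 and 36.4 CPM. Smaller differences with tight groups were seen for Bcl2l1, which encodes the survival protein BCL-XL, at 83.6, 79.4 and 76.6 against 55.5 and 52.0 CPM. Ceacam1, a cell adhesion protein that takes part in insulin clearance in liver, was at 37.2, 34.6 and 36.4 against 23.3 and 21.7 CPM. Trim67, a ubiquitin ligase, was at 61.7 to 76.4 against 37.9 and 39.3 CPM, and Jade2, a chromatin-associated ubiquitin ligase, at 38.3 to 46.8 against 23.9 and 25.4 CPM.

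On the higher side Rpl39l, a copy of the ribosomal protein gene Rpl39, was at 1.77, 4.40 and 2.46 CPM in controls and 14.8 and 12.7 CPM in knockouts (log2 change 1.98, SE 0.27). Its sequence is close to that of Rpl39 and its level is therefore uncertain. Rpl39l also varied within groups of the other data sets, from 0.108 to 7.88 CPM among ieWAT controls and from 0.703 to 28.9 CPM among sWAT knockouts. Dynlt1b, a dynein light chain with near-identical copies, was at 34.9, 39.2 and 46.9 against 79.4 and 72.9 CPM (log2 change 0.91, SE 0.13), and is uncertain for the same reason, as are the histone genes Hist2h2aa2 (76.4 to 83.8 against 102 and 107 CPM) and Hist1h1c (54.3 to 56.8 against 73.9 and 68.4 CPM). Ubd, a ubiquitin-like modifier induced by cytokines, was at 115, 129 and 151 against 199 and 210 CPM (log2 change 0.64, SE 0.12). Wfdc21, a secreted whey acidic protein family member, was at 24.0, 26.5 and 23.1 against 36.7 and 42.8 CPM, and P2ry1, a receptor of extracellular ADP, at 7.56, 7.19 and 7.27 against 10.7 and 12.2 CPM.

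Several genes of mitochondria were in the higher group. Bnip3, a mitophagy receptor of the outer membrane, was at 200, 231 and 238 CPM in controls and 294 and 330 CPM in knockouts (log2 change 0.49, SE 0.10). Mtln, which encodes the inner membrane micropeptide mitoregulin, was at 24.4, 25.1 and 23.6 against 32.9 and 31.8 CPM, and Cox16, an assembly factor of cytochrome oxidase, at 16.0, 16.8 and 17.4 against 21.9 and 23.8 CPM. Msrb2, a mitochondrial methionine sulfoxide reductase, was at 16.4, 19.7 and 17.1 against 28.4 and 24.6 CPM. mt-Atp8, a subunit of ATP synthase on the mitochondrial genome, was at 140, 155 and 181 against 342 and 230 CPM (log2 change 0.83, SE 0.18), and knockout 1 stood well above knockout 2. The share of reads from mitochondrial genes was 2.83%, 3.04% and 3.36% in control libraries, 4.19% in knockout 1 and 3.29% in knockout 2.

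**Figure D3:**
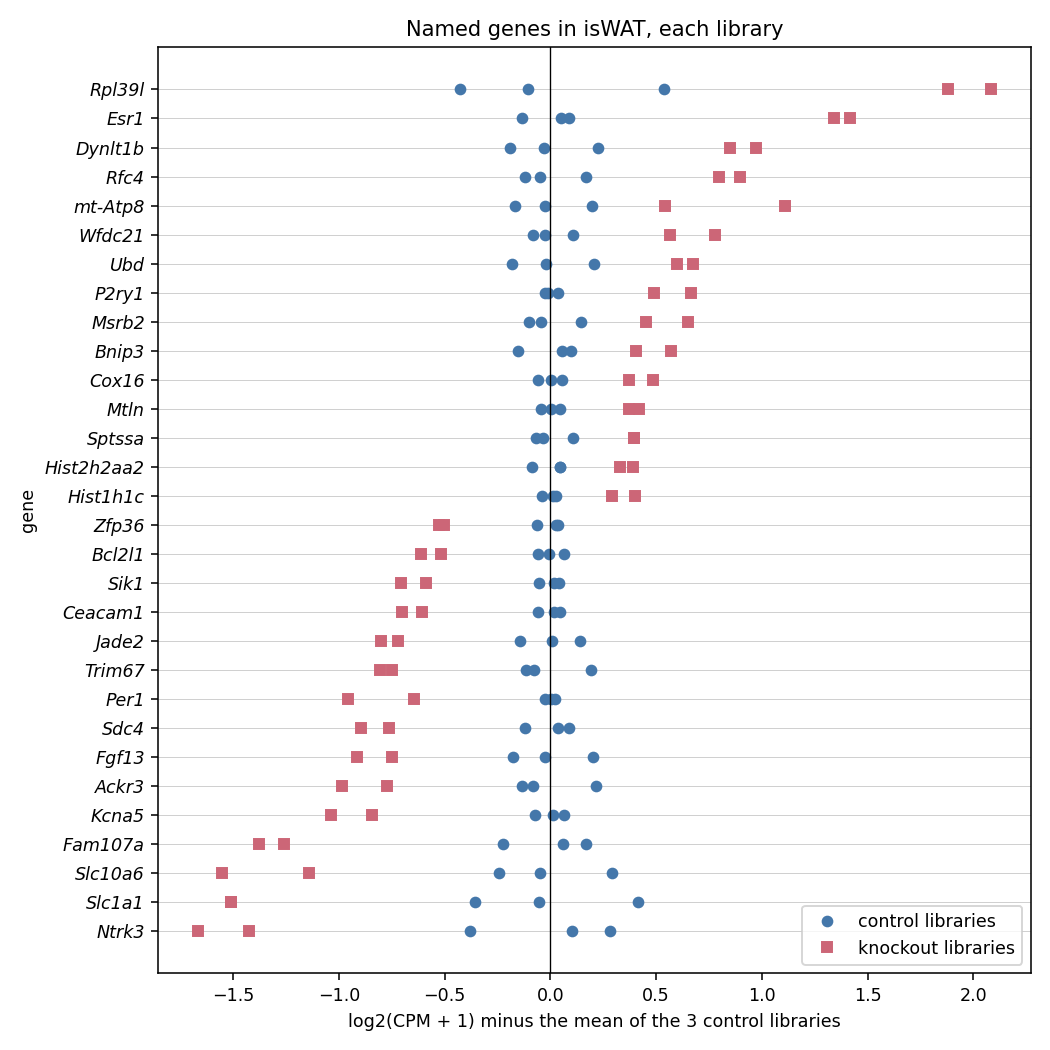
Each named gene in each isWAT library as log2(CPM + 1) minus the mean of the 3 controls (circles, control; squares, knockout). The changes run from -1.55 for Ntrk3 to 1.98 for Rpl39l, and the groups do not overlap for any gene because the rule chose genes that way.

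Several of the lower genes are known targets of glucocorticoids, the stress steroids that act through the glucocorticoid receptor. Their promoters are shown where a script found the receptor's palindromic element. The element was searched as GNACA, any 3 bases and then TGTNC, on both strands, in the 250 bases before each RefSeq gene start (GRCm38.p6). It was present for Fam107a, Kcna5 and Slc10a6, 3 of the 11 named lower genes that have a window (27.3%), and for 0 of 10 named higher genes. Of all 27025 genes with windows 119 (0.440%) held it. Sgk1, a kinase gene from the glucocorticoid list, chosen after its values were seen, held it too. Of the 9 genes of that list with both knockout libraries below every control, 2 (22.2%) held the element, Fam107a and Sgk1. The stretches below are read 5′ to 3′ on the gene's strand, with the element in capitals; those of Fam107a and Sgk1 lie before an internal start of the gene.
Fam107a, chr14:8309839-8309943, minus strand: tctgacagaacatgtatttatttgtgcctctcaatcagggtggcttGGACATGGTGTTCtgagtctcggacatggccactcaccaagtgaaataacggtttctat
Kcna5, chr6:126535556-126535660, minus strand: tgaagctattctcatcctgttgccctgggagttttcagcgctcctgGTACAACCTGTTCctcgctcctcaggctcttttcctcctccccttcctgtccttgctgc
Slc10a6, chr5:103629508-103629612, minus strand: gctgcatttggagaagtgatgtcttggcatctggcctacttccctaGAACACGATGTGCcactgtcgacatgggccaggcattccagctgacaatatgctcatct
Sgk1, chr10:21993656-21993760, plus strand: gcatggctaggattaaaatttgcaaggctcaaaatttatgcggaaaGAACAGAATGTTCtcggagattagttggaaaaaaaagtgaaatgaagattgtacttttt
The element starts 118, 59, 163 and 188 bases before the start in the same order. A match describes the letters and is not evidence of binding. The E-box CACGTG and the cyclic AMP element TGACGTCA were searched in the same windows. The E-box was present for 2 of 11 named lower genes (18.2%), 1 of 10 named higher genes and 6.86% of all genes. The cyclic AMP element was present for 0 of 11 and 0 of 10, against 1.77% of all genes. Among the 9 lower genes of the glucocorticoid list it was present for 2 (22.2%), as many as held the glucocorticoid element. The E-box was present for 3 of these 9 (33.3%). Of 11 lower immediate early genes with a window, read below, 1 held the glucocorticoid element, 1 the cyclic AMP element and 3 the E-box. The genes were chosen for their values, so no test was made.

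Of the 20 genes of the glucocorticoid list, all kept, 9 (45.0%) were lower in both knockout libraries than in every control and 0 were higher, against 19.4% and 12.2% of all genes. Their median log2 change was -0.24, against -0.03 over all genes. As with every list here, the members were chosen with earlier results of these data known. The share is therefore not independent support for a common change. Besides Fam107a, Per1, a clock gene that is also induced directly by glucocorticoids, was at 146, 141 and 144 CPM in controls and 91.4 and 73.3 CPM in knockouts (log2 change -0.80, SE 0.10, adjusted p 0.170 in limma). Dusp1, a phosphatase that turns off MAP kinases, was at 74.1, 66.4 and 68.2 against 37.1 and 47.3 CPM, and Cdkn1a, the cell cycle inhibitor p21, at 126, 119 and 138 against 78.0 and 91.3 CPM. Tsc22d3, the leucine zipper gene GILZ, was at 205, 233 and 193 against 157 and 163 CPM. The list was not uniform. Fkbp5, a chaperone induced by the receptor, overlapped at 71.7 to 117 against 75.4 and 94.1 CPM, as did Mt1, a metallothionein, at 65.4 to 83.9 against 57.4 and 82.8 CPM. Nr3c1, the receptor gene, was at 109 to 128 against 101 and 131 CPM. These 3 were chosen after their values were seen. With control 2 and knockout 1 left out, 10 of 20 were lower and 4 higher, where 40.9% of all genes were lower and 32.4% higher, and under TMM scaling the count of 9 was unchanged with 15.8% of all genes lower.

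Immediate early genes, the transcription factors and phosphatases induced within minutes of a stimulus, were lower in 12 of 23 kept (52.2%) and higher in 3, with a median log2 change of -0.27. Dusp1 is among the lower genes of both this list and the glucocorticoid list, so their counts are not separate evidence. The mean of log2(CPM + 1) over the 23 genes was 4.61, 4.44 and 4.46 in controls, against 4.26 and 4.24 in knockouts. Zfp36, which encodes the mRNA-destabilising protein tristetraprolin, was at 92.6, 92.0 and 86.4 against 63.5 and 62.3 CPM (log2 change -0.52, SE 0.08). Jun was at 79.5, 74.6 and 71.7 against 57.5 and 56.2 CPM, Fosl2 at 87.2, 62.5 and 86.0 against 45.1 and 56.4 CPM, and Nr4a1, an orphan nuclear receptor, at 16.2, 12.6 and 13.3 against 10.4 and 8.12 CPM. Egr2, Atf3 and Nr4a2 were the members with both knockout libraries higher. Egr2, also a regulator of myelination, was at 4.22, 4.77 and 6.19 against 7.40 and 8.19 CPM, and Atf3, a stress-response factor, at 12.6, 16.3 and 24.1 against 28.8 and 26.2 CPM. Fos and Egr1, often taken as markers of handling, overlapped between groups, with Fos at 21.7, 13.8 and 14.4 against 12.5 and 14.2 CPM and Egr1 at 49.9, 30.2 and 24.3 against 30.6 and 28.6 CPM. Atf3, Nr4a2, Fos and Egr1 were chosen after their values were seen. With control 2 and knockout 1 left out, 17 of 23 (73.9%) were lower, where 40.9% of all genes were lower.

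Cyclic AMP acts on transcription through CREB and its CRTC coactivators, which salt-inducible kinases hold in the cytoplasm. Of 21 genes of this list 10 (47.6%) were lower and 2 higher, but the list shares Dusp1, Per1 and the Nr4a genes with those above, so its count is not separate evidence. Its median transcript length was 4304 bases, a quintile in which 26.0% of genes were lower. Sik1, itself induced by cyclic AMP, was at 62.4, 59.3 and 63.4 CPM in controls and 37.3 and 40.7 CPM in knockouts (log2 change -0.65, SE 0.08, adjusted p 0.170 in limma). The 3 coactivator genes were all lower: Crtc3 was at 43.9, 36.4 and 39.6 against 28.9 and 30.3 CPM (log2 change -0.42, SE 0.10), Crtc1 at 20.0, 20.9 and 22.1 against 15.3 and 18.1 CPM, and Crtc2 at 59.2, 63.2 and 56.2 against 52.4 and 48.8 CPM. Crtc1 and Crtc2 were named after their values were seen, and none passed the test. The full cyclic AMP element TGACGTCA lay 143 bases before the start of Dusp1 and in 1.77% of all genes with windows. Dusp1 was the 1 gene with the element among 11 lower immediate early genes with a window. The element is shown in capitals below.
Dusp1, chr17:26508562-26508661, minus strand: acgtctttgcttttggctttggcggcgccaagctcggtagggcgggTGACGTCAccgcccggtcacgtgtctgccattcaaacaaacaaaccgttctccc

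Of 20 clock genes, 4 were lower and 0 higher, a share of 20.0% that is near the 19.4% background. Per1 was followed by Arntl, which encodes the activator BMAL1, at 6.99, 6.59 and 10.7 CPM in controls and 4.72 and 5.09 CPM in knockouts, while Per2 overlapped (39.4 to 59.8 against 39.5 and 34.0 CPM). Heat shock genes were lower in 5 of 14 and higher in 2, with a median log2 change of -0.07 against -0.03 over all genes. The inducible chaperones Hspa1a (7.51, 6.46 and 5.31 against 2.71 and 3.15 CPM) and Hspa1b (10.3, 7.61 and 6.90 against 4.14 and 4.54 CPM) came first. That pair is near-identical, so reads between them are uncertain. Of 13 hypoxia genes, 5 were lower and 2 higher. They did not move one way: Bnip3 was higher, while Vegfa, the endothelial growth factor, was at 172, 168 and 178 against 142 and 117 CPM, Ddit4, an mTORC1 inhibitor that glucocorticoids also induce, at 120, 115 and 134 against 80.7 and 101 CPM, and Hilpda, a lipid droplet inhibitor of lipolysis, at 58.6, 34.7 and 58.5 against 27.9 and 20.2 CPM.

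**Figure D4:**
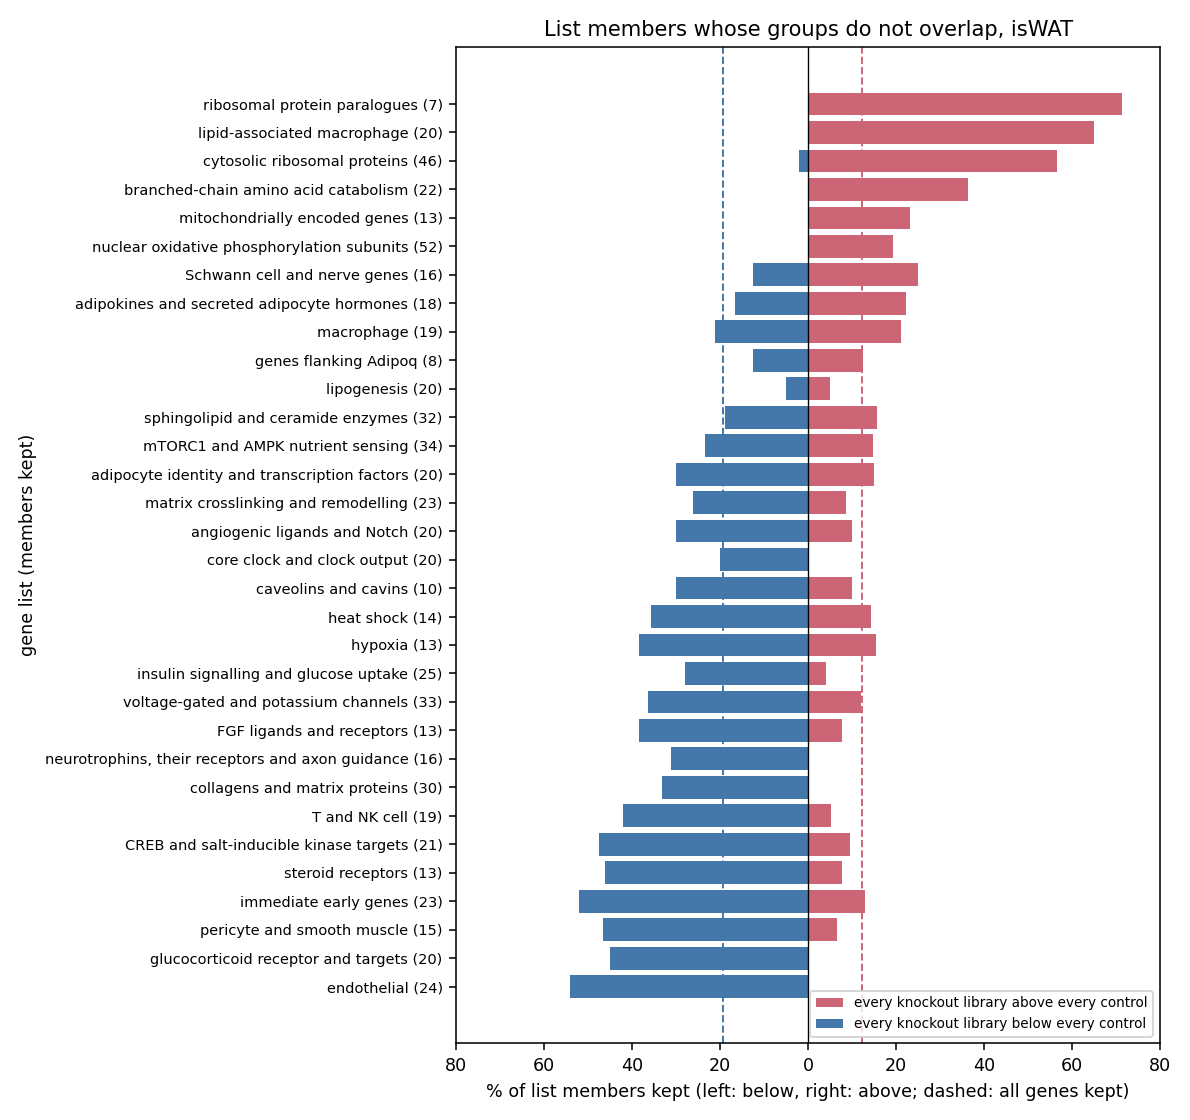
Share of the kept members of each gene list (number in brackets) with both knockout libraries above every control (right, red) or below every control (left, blue) in isWAT; dashed lines are the shares of all 14258 genes, 12.2% above and 19.4% below. Endothelial (54.2%) and immediate early (52.2%) lists extend furthest to the left, and ribosomal and lipid-associated macrophage lists to the right.

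Blood vessel genes were lower in the knockout libraries. Of 24 endothelial markers 13 (54.2%) were lower without overlap and 0 higher, with a median log2 change of -0.20 and a median transcript length of 3610 bases, a quintile in which 20.6% of genes were lower. The mean of log2(CPM + 1) over the list was 7.45, 7.37 and 7.23 in controls, against 7.17 and 7.15 in knockouts, so control 3 was close to the knockouts. Tek, the receptor of angiopoietins, was at 95.8, 88.7 and 99.6 CPM in controls and 67.3 and 72.4 CPM in knockouts (log2 change -0.43, SE 0.09, adjusted p 0.23 in limma). Flt1, a receptor that sequesters VEGF, was at 214, 181 and 192 against 133 and 148 CPM, and Nos3, endothelial nitric oxide synthase, at 173, 144 and 153 against 120 and 122 CPM. Podxl, a luminal sialomucin, was at 146, 126 and 129 against 93.8 and 104 CPM, and Ptprb, a phosphatase that restrains Tek, at 451, 357 and 393 against 248 and 340 CPM. No member passed the test. With control 2 and knockout 1 left out, 17 of 24 were lower and 1 higher, where 40.9% of all genes were lower. Under TMM scaling 11 of 24 were lower (15.8% of all genes), and leaving out control 1, 2 or 3 gave 13, 14 and 18 (24.3%, 27.0% and 25.5% of all genes). Leaving out knockout 1 or 2 gave 16 and 15 (33.1% and 37.2% of all genes).

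Among 15 genes of pericytes and smooth muscle, 7 (46.7%) were lower and 1 higher. The contractile genes Tagln (128, 128 and 122 CPM in controls, 97.2 and 106 CPM in knockouts), Myl9 (104, 101 and 99.9 against 88.9 and 84.2 CPM) and Myh11 (159, 118 and 141 against 114 and 100 CPM) were lower, as was the adhesion molecule Mcam (962, 816 and 891 against 711 and 764 CPM). Kcnj8, a subunit of the ATP-sensitive potassium channel of pericytes, was on the other side, at 49.1, 37.4 and 32.8 against 57.3 and 59.2 CPM (log2 change 0.56, SE 0.16). In the list of angiogenic ligands and Notch genes 6 of 20 (30.0%) were lower and 2 higher. Jag2, a Notch ligand, was at 80.7, 66.5 and 61.5 against 42.5 and 40.7 CPM (log2 change -0.72, SE 0.12), and Pdgfb, which recruits pericytes, at 133, 129 and 112 against 94.7 and 92.2 CPM. Heyl, a Notch target of mural cells, was higher, at 34.0, 38.8 and 28.4 against 56.5 and 46.3 CPM.

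Lipid-associated macrophages surround dying adipocytes in obesity and take up their lipid. Of 20 markers, all kept, 13 (65.0%) were higher in both knockout libraries than in every control and 0 lower, against a background of 12.2% and 19.4%, and the median log2 change was 0.24. Lgals3, a galectin of lysosomal damage, was at 333, 360 and 459 CPM in controls and 518 and 499 CPM in knockouts (log2 change 0.42, SE 0.14, adjusted p 0.32 in limma). The lysosomal proteases Ctsz (296, 328 and 318 against 379 and 363 CPM) and Ctsb (2885, 3079 and 3267 against 3655 and 3560 CPM) followed. Cd63, a lysosomal tetraspanin, was at 160, 176 and 169 against 185 and 201 CPM. Fabp4, at 7977, 9996 and 9218 against 11707 and 11253 CPM, is on the list but is also a main gene of adipocytes, as is Lpl, so its change cannot be placed in macrophages. The markers spread widely among controls: Mmp12, a macrophage elastase, was at 26.4, 43.7 and 80.5 against 95.4 and 106 CPM, and Trem2, the lipid receptor that defines these cells, at 23.8, 40.1 and 52.4 against 59.7 and 55.3 CPM. Both were named after their values were seen. No member passed the test, and control 1 was the lowest library in the list mean (8.06, against 8.31 and 8.52 in the other controls and 8.65 and 8.67 in knockouts). With control 2 and knockout 1 left out, 18 of 20 were higher, against 32.4% of all genes.

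Broader macrophage markers were divided, with 4 of 19 higher and 4 lower. Lyz2, lysozyme, was at 336, 369 and 430 CPM in controls and 474 and 509 CPM in knockouts, and Cd68 at 80.4, 89.0 and 118 against 119 and 119 CPM. Mgl2, a lectin of resident macrophages and dendritic cells, was lower, at 38.5, 31.3 and 27.6 against 21.1 and 22 CPM (log2 change -0.56, SE 0.14). Of 19 T and NK cell genes 8 (42.1%) were lower and 1 higher, with a median log2 change of -0.26, all at low level. Trbc2, a T cell receptor constant region, was at 2.60, 4.06 and 4.12 against 2.25 and 1.37 CPM, Cd4 at 4.52, 1.62 and 3.56 against 1.27 and 1.18 CPM, and Zap70, the kinase of the T cell receptor, at 1.34, 1.85 and 1.74 against 0.796 and 0.889 CPM. Cd8a was at 2.44, 1.62 and 2.66 against 1.25 and 1.30 CPM. The summed level of the T and NK list was 39.9 to 46.5 CPM in controls and 27.3 to 34.9 CPM in knockouts. Ccl21a, a chemokine of lymph node stroma, was at 14.2 CPM in control 3 and at most 2.13 CPM in the others. It was chosen after its values were seen, and its part in the lymphocyte counts was not tested.

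Collagen and matrix genes were lower in 10 of 30 (33.3%) and higher in 0, with a median log2 change of -0.19. Their median transcript length was 5988 bases, and 30.5% of genes of that quintile were lower, so the share is near that of long genes in general. The list mean was 9.15, 8.95 and 9.02 in controls, 8.69 in knockout 1 and 8.96 in knockout 2, so knockout 1 alone stood below the controls. Without knockout 1, 12 of 30 were lower and 7 higher, where 33.1% of all genes were lower and 23.4% higher, and without knockout 2, 25 were lower and 0 higher, where 37.2% and 26.5% were. Fbn1, fibrillin of microfibrils and the precursor of the hormone asprosin, was at 167, 115 and 128 CPM in controls and 75.0 and 77.4 CPM in knockouts (log2 change -0.82, SE 0.15, adjusted p 0.23 in limma). Eln, elastin, was at 185, 162 and 141 against 96.1 and 114 CPM, and Fn1, fibronectin, at 400, 297 and 276 against 194 and 241 CPM. The fibrillar collagen genes Col5a3 (1020, 936 and 1049 against 828 and 806 CPM) and Col5a1 (607, 531 and 564 against 391 and 500 CPM) differed less. Of 23 genes of matrix crosslinking and remodelling, 6 (26.1%) were lower and 2 higher. Their median transcript length was 4097 bases, a quintile in which 26.0% of genes were lower, so this share is at that background. Loxl2, a collagen crosslinking oxidase, was at 87.1, 84.2 and 84.3 against 63.2 and 68.5 CPM (log2 change -0.37, SE 0.08).

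Ntrk3 was the main nerve-related gene. Its ligand gene Ntf3 was low, at 2.36, 2.37 and 2.83 CPM in controls and 1.35 and 2.14 CPM in knockouts. Nrp2, a semaphorin and VEGF co-receptor, was at 162, 145 and 146 against 120 and 125 CPM. Of 16 neurotrophin and axon guidance genes 5 (31.2%) were lower and 0 higher. Their median transcript length was 5090 bases, a quintile in which 26.0% of genes were lower. Schwann cell genes, which mark nerve sheaths, were higher in 4 of 16 and lower in 2. Cdh19, a cadherin of these cells, was at 1.52, 2.32 and 1.80 against 2.84 and 4.13 CPM. L1cam, an axonal adhesion molecule, was lower, at 9.85, 10.8 and 11.4 against 6.79 and 8.67 CPM. Ntf3 was named after its values were seen.

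Voltage-gated sodium channels are the best known binding partners of FGF13. The list read here also holds calcium and potassium channels and is not a list of FGF13 partners. Of 44 sodium, calcium and potassium channel genes 33 were kept, of which 12 (36.4%) were lower and 4 higher. The median transcript length of this list was 5705 bases, where 30.5% of genes were lower. Kcna5, given above, had the smallest p of the list. Kcnk6, a background potassium channel, was at 12.1, 11.7 and 13.3 against 9.65 and 9.80 CPM. Scn8a, a sodium channel that FGF13 can bind, was at 19.1, 17.7 and 17.1 against 10.4 and 15.4 CPM. It was chosen after its values were seen.

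Adipocyte genes did not share a direction. Of 18 secreted factors, 4 were higher and 3 lower. Apln, apelin, was at 76.5, 77.7 and 57.3 against 52.7 and 49.5 CPM, and Lep was lower (log2 change -0.27, SE 0.11). Adipoq was higher in both knockout libraries (log2 change 0.26, SE 0.08), and Nampt, an enzyme of NAD synthesis that is also secreted, was at 65.7, 71.5 and 68.4 against 75.7 and 85.8 CPM. Among 20 genes of adipocyte identity, 3 were higher and 6 lower. Cebpd, an early factor of fat cell differentiation and a glucocorticoid-induced gene, was at 17.5, 15.1 and 16.9 against 8.86 and 11.5 CPM (log2 change -0.65, SE 0.13). Cebpb was at 25.9, 23.5 and 22.5 against 19.3 and 18.9 CPM, and Prdm16, a factor of beige fat, at 34.4, 32.3 and 36.0 against 26.6 and 25.7 CPM. Pparg, the master regulator, overlapped, at 194 to 233 against 172 and 196 CPM. Lipogenic genes had 1 of 20 higher and 1 lower. Scd1, the stearoyl-CoA desaturase, was the higher one, at 14758, 17414 and 18402 against 23577 and 19747 CPM, and Mlxipl, the carbohydrate-responsive factor ChREBP, the lower, at 64.7, 90.4 and 65.9 against 62.8 and 48.1 CPM.

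The series title names ceramide, FGF13 and nutrient sensing, and those genes were read next. Of 38 sphingolipid enzymes 32 were kept, of which 5 (15.6%) were higher and 6 (18.8%) lower, near the 12.2% and 19.4% background, with a median log2 change of -0.01. Sptssa, the small subunit of serine palmitoyltransferase, which begins ceramide synthesis, was at 26.7, 27.3 and 30.2 CPM in controls and 37.2 and 37.1 CPM in knockouts (log2 change 0.39, SE 0.09, adjusted p 0.270 in limma). Acer2, a Golgi ceramidase, was at 96.7, 105 and 91.6 against 72.7 and 75.9 CPM (log2 change -0.39, SE 0.09), and Sgms1, a sphingomyelin synthase, at 97.5, 78.3 and 101 against 61.1 and 75.3 CPM. Cers4, a ceramide synthase, was at 110, 102 and 93.8 against 115 and 119 CPM, and Smpd4, a neutral sphingomyelinase, at 39.4, 36.7 and 37.9 against 34.0 and 32.4 CPM.

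Of 34 mTORC1 and AMPK genes kept, 5 (14.7%) were higher and 8 (23.5%) lower. Rheb, the GTPase that activates mTORC1, was at 60.3, 59.1 and 62.2 CPM in controls and 72.2 and 75.0 CPM in knockouts (log2 change 0.28, SE 0.07, adjusted p 0.30 in limma). The mTORC1 inhibitor genes Ddit4 and Sesn2 were lower, Sesn2 at 90.4, 75.4 and 86.6 against 69.4 and 56.7 CPM. Prkag2, a regulatory subunit of AMPK, was at 47.6, 47.1 and 51.9 against 40.4 and 34.1 CPM, and Ulk1, the kinase that starts autophagy, at 85.2, 80.7 and 80.2 against 69.9 and 72.1 CPM. Insulin signalling genes were lower in 7 of 25 (28.0%) and higher in 1. This list had a median transcript length of 6323 bases, a quintile in which 30.5% of genes were lower. Foxo1, a transcription factor held back by insulin, was at 123, 111 and 112 against 89.8 and 92.0 CPM. The docking protein genes were divided, with Irs1 at 26.0, 32.7 and 28.5 against 34.0 and 40.2 CPM and Irs2 at 62.1, 55.9 and 58.0 against 41.2 and 54.1 CPM. Of 10 genes of caveolae, the plasma membrane pits that are dense on adipocytes, 3 were lower and 1 higher. Cav1, the main structural gene, was at 1993, 1926 and 1993 against 2135 and 2225 CPM (log2 change 0.15, SE 0.08), and Pacsin2, a membrane-bending protein, at 127, 131 and 119 against 115 and 109 CPM.

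Of 46 cytosolic ribosomal protein genes 26 (56.5%) were higher and 1 lower, with a median log2 change of 0.16 and a median transcript length of 1102 bases, a quintile in which 21.1% of genes were higher. Their mean of log2(CPM + 1) was 7.58, 7.76 and 7.63 in controls, against 7.86 and 7.77 in knockouts, so control 2 and knockout 2 were almost level. Of 7 ribosomal paralogues kept, 5 were higher, among them Rpl22l1 at 20.6, 24.9 and 26.8 against 31.6 and 32.3 CPM. Nuclear genes of oxidative phosphorylation were higher in 10 of 52 (19.2%), near the share of short genes. Their mean was 7.32 in knockout 1, 7.03 in knockout 2 and 6.94 to 7.13 in controls, so knockout 1 alone stood above. Of 13 mitochondrially encoded genes 3 were higher, with mt-Co3 at 1622, 1734 and 1995 against 3121 and 2171 CPM. Branched-chain amino acid catabolism, whose enzymes are active in healthy fat, had 8 of 22 higher (36.4%) and 0 lower, with a median transcript length of 3268 bases and 11.4% higher in that quintile. Auh was at 70.1, 78.6 and 75.1 against 97.5 and 83.6 CPM and Hibadh at 160, 162 and 171 against 198 and 183 CPM. Acadsb was at 93.9, 104 and 106 against 115 and 121 CPM. The median change of the list was 0.09 on the log2 scale, and no member passed the test.

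The same genes were then read in the most similar data sets, epididymal fat with the inducible knockout and subcutaneous fat with the constitutive knockout, each with 3 control and 3 knockout libraries. Each table was normalised on its own, so values are set side by side and no difference between them was tested, and whether they share animals is not stated. In ieWAT limma called 0 of 14749 genes and in sWAT 3 of 13816 (0.0217%). Of the 14 named lower genes other than Fgf13, 14 had a negative change in ieWAT, where 44.2% of all genes did, and 8 were lower in every knockout library than in every control, against 1.68% of all genes. Kcna5 was at 21.0, 18.0 and 25.5 against 8.80, 15.8 and 8.55 CPM in ieWAT, and Fam107a at 9.16, 8.88 and 9.45 against 2.97, 7.44 and 3.92 CPM. Slc10a6 was at 14.1, 8.31 and 10.8 against 4.89, 6.23 and 5.64 CPM, and Slc1a1 at 5.05, 2.98 and 3.56 against 1.58, 1.67 and 1.26 CPM. None of them passed in ieWAT (adjusted p 1.00 in limma).

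In sWAT 10 of the 14 were negative, where 62.8% of all genes were, and 3 did not overlap, against 12.3%. Sik1 was among these 3, at 70.8, 52.8 and 66.0 CPM in controls and 40.1, 41.9 and 41.2 CPM in knockouts, whereas in ieWAT Sik1 overlapped. Slc1a1 and Ntrk3 had positive changes in sWAT with overlapping groups. Of the 15 named higher genes 14 were tested in each of the other data sets. In ieWAT 13 were positive and 2 did not overlap, Esr1 and Rfc4, against 3.43% of all genes. In sWAT 11 were positive and 7 did not overlap, against 3.8%. Esr1 was at 16.0, 10.1 and 9.0 against 17, 25.6 and 21.1 CPM in ieWAT and at 14.0, 15.5 and 17.7 against 29.8, 14.4 and 24.6 CPM in sWAT, where 1 knockout library lay among the controls. Rfc4 was higher in every knockout library than in every control in all 3 data sets, at 8.51 to 12.2 against 5.53 to 6.37 CPM in ieWAT and 9.20 to 9.56 against 5.78 to 7.25 CPM in sWAT.

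The glucocorticoid list had a negative change of its mean and a median change under -0.2 in all 3 data sets. So did the erythroid and platelet list, with medians of -0.58, -0.20 and -0.50 in isWAT, ieWAT and sWAT and overlapping groups in each. The mean of log2(CPM + 1) of the glucocorticoid list changed by -0.26 in isWAT, -0.22 in ieWAT, where the groups overlapped, and -0.32 in sWAT, where they did not. Immediate early genes changed by -0.25, -0.01 and -0.21, with overlapping groups in ieWAT and sWAT. The endothelial list was lower without overlap in sWAT too (11 of 24 members lower, against 12.3% of all sWAT genes, and a change of the mean of -0.25), and overlapped in ieWAT. The lipid-associated macrophage list was lower in sWAT, by 0.52, with every knockout library below every control. The sWAT knockout libraries spread widely, with list means from 7.67 to 8.56 against 8.61 to 8.78 in controls. Of the 20 members 6 were lower without overlap in sWAT and 0 higher, against 12.3% and 3.8% of all sWAT genes.

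**Figure D5:**
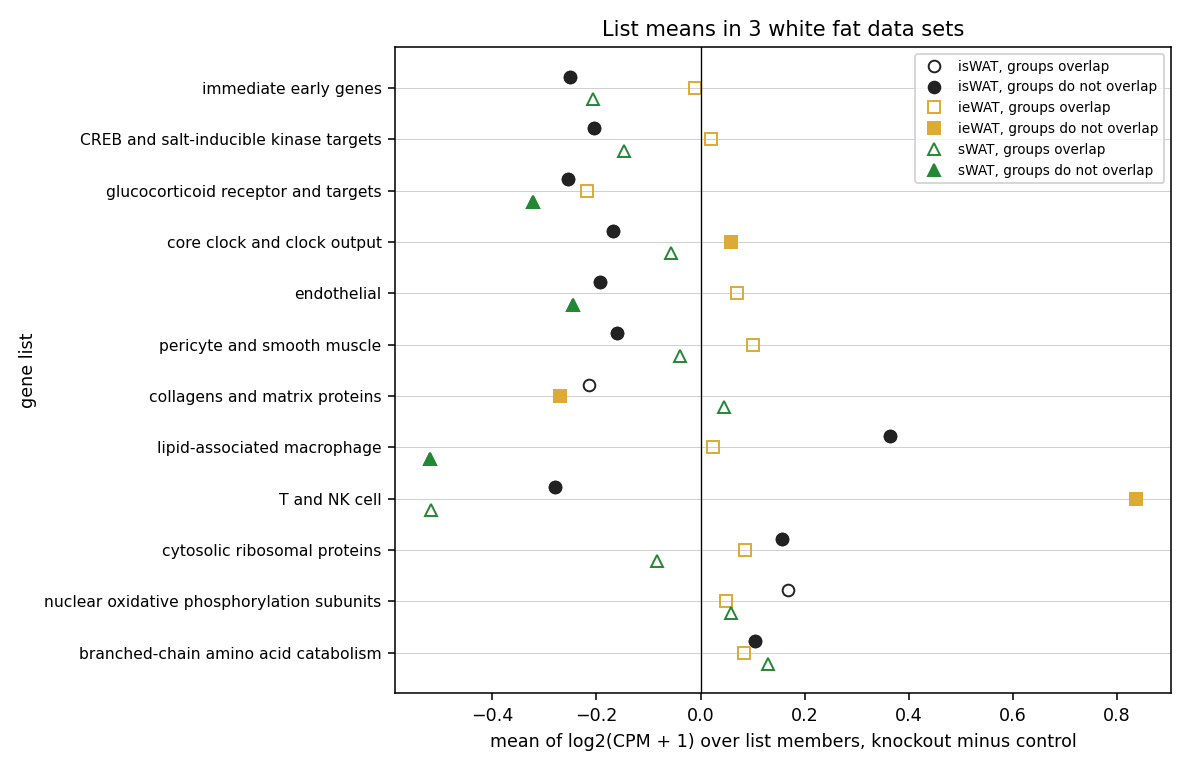
Change (knockout minus control) of the mean of log2(CPM + 1) over the kept members of 12 lists in isWAT (circles), ieWAT (squares) and sWAT (triangles); filled symbols mark means whose groups do not overlap. The lipid-associated macrophage list is at 0.36 in isWAT and -0.52 in sWAT, and the T and NK cell list at -0.28 in isWAT and 0.84 in ieWAT.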

How the data were processed

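RNA was read by short-read sequencing of subcutaneous fat, per the labels' protocols. The submitters' processing notes name Salmon, FastQC, MultiQC and DESeq2 1.38.3 without their roles; the sources used here give no genome build or annotation. The deposited table is titled FPKM, but its values as deposited by the authors are CPM: every column has the same total, and all values were whole multiples of 1 read within 0.01 reads. Whole reads were recovered from them. Symbols came from GENCODE M21 by identifier without version (92.0% matched). Transcript length was that of the longest M21 transcript.

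Genes with at least 1 CPM in 2 or more of the 5 columns were fitted with limma 3.58.1 in R 4.3.3 (two-sided; lmFit, then eBayes with its trend and robust settings) on log2(CPM + 1), with Benjamini-Hochberg adjustment and a threshold of 0.05. edgeR 4.0.16 and DESeq2 1.42.0 on the recovered reads were alternatives: 100% of values came out whole, and edgeR called 1 gene and DESeq2 273. On data simulated for this comparison with 14258 genes, limma called 87 of 100 genes changed 2-fold and 53 of 100 changed 1.5-fold. It also called 17 unchanged genes. How often limma calls such changes in the real libraries, with their hepatocyte and transcript length differences, was not tested. Genes named are Fgf13, genes past the threshold, the 15 higher and 15 lower genes with the smallest p among those without overlap and with a mean of at least 2 CPM in the higher group (Fgf13 among the lower), with symbols that are not bare model names, and in each list described the leading members by p, 5 at most. Members and lists were chosen with earlier results of these data known, and the hepatocyte list was added after seeing the data. Other settings were pseudocounts of 0.1 and 0.5, TMM scaling, scaling without mitochondrial reads, other filters, a threshold of 0.1, eBayes without options, a replicate block and leaving out each library. Ucp1, Alb, Rpl39, Pgr, Greb1, Lpl and Pparg were also named after their values were seen. Some members of the lists are not reported here.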

Additional observations from a re-analysis of the deposited data

Results flagged for a closer look

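Opposite differences without overlap of the groups were seen between data sets for 3 lists and 7 genes; none of these differences was tested, and ieWAT is another depot and sWAT another kind of knockout. The mean of log2(CPM + 1) over the lipid-associated macrophage list was higher by 0.36 in isWAT knockout libraries and changed by -0.52 in sWAT. In sWAT this mean ran from 7.67 to 8.56 over knockout libraries, against 8.61 to 8.78 over controls. Within and beside that list, Lgals3 changed by 0.42 in isWAT and -0.72 in sWAT, Cd68 by 0.33 and -0.80, and Mgl2, a resident macrophage gene, by -0.56 and 0.75. Fbn1 changed by -0.82 in isWAT and 0.65 in sWAT.

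The T and NK cell list changed by -0.28 in isWAT and 0.84 in ieWAT, with Trbc2 at -0.71 and 1.01, Zap70 at -0.52 and 0.88, and Cd5 at -0.52 and 1.10. The summed level of the list was 27.3 to 46.5 CPM over the isWAT libraries and 39.6 to 129 CPM over those of ieWAT. The clock list changed by -0.17 in isWAT and 0.06 in ieWAT.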

How the results depend on the processing

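The number of genes called was 1. It was 273 with DESeq2, 0 with eBayes without its options, 3 with no filter on low values, 7 with the replicate block (2 higher, 5 lower), and ranged from 0 to 12 when each library was left out (0 without control 1, control 3 or knockout 2, 12 without control 2, 5 without knockout 1). Chosen after seeing the data, the mean of the hepatocyte list as a covariate gave 6 calls, and leaving out both libraries rich in hepatocyte transcripts gave 54. Fgf13 passed with DESeq2 (-0.83, adjusted p 1.02e-05) and without those libraries (-0.84, adjusted p 0.0390), and ranged from -0.92 to -0.73 over all settings. Every named gene kept its direction under every setting run. For left-out libraries, other pseudocounts and other filters this was fixed in advance, because the groups of every named gene do not overlap. Deviations of same-numbered libraries from their group means had correlations of -0.33 and -0.56. The 2 knockout libraries deviate from their mean by equal and opposite amounts, so this cannot show whether the numbers mark pairs. With 2 knockout libraries, leaving out 1 assumes that the other varies like the controls. Over ieWAT and sWAT together, 48 of the named genes' estimates had the isWAT direction with limma, edgeR and DESeq2.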

Other observations

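Hepatocyte transcripts were also uneven within the groups of the other data sets. The summed level of the list ran from 69.7 to 2885 CPM over ieWAT control and from 1358 to 4339 CPM over ieWAT knockout libraries, and from 77.8 to 330 CPM and 51.5 to 882 CPM over sWAT control and knockout libraries. Interferon response genes were raised in 1 library: their mean of log2(CPM + 1) was 4.86 in isWAT knockout 1, against 4.38 in knockout 2 and 4.44 to 4.48 in controls. B cell and lymph node genes had a mean of 3.33 in control 3, against 2.45 and 2.54 in the other controls and 2.17 and 2.37 in knockout libraries.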
